A study of Mus musculus with 4 samples.

Results

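The genes described here are 9 members of the interleukin 1 (IL-1) family and of the inflammasome that processes it: Il1a, Il1b, Il1rn, Il1r2, Il1rap, Il18, Il18bp, Nlrp3 and Casp1. They were chosen by gene symbol, with earlier results of these data known. All 9 were found among the 27998 genes that the 4 libraries share. The cells came from livers of male wild-type C57BL/6 mice that were 8 weeks old when obtained. For 6 weeks the mice ate a normal control diet (NCD, 2 libraries) or a diet without methionine and choline (MCD, 2 libraries), a common mouse model of inflamed fatty liver. Live CD45+ Ly6G- cells with intermediate CD11b were sorted and profiled by droplet single-cell RNA sequencing. Their F4/80 level is low in the series text but high in the labels of the samples. The sources used here do not say if each library came from a single mouse or from pooled mice, so the spread between libraries may be partly technical. No label gives a preparation batch, so diet and batch cannot be told apart.

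IL-1β and IL-1α, made from Il1b and Il1a, are inflammatory cytokines that act through the same receptor and recruit neutrophils and monocytes. Monocytes and macrophages are a main source of IL-1β, and they make its precursor after signals through Toll-like receptors and NF-κB. The precursors of IL-1β and of the related IL-18 are cut by caspase 1, which is switched on in inflammasomes such as the one built around the sensor NLRP3. Several proteins restrain the system. The IL-1 receptor antagonist (Il1rn) occupies the receptor without signalling, the type 2 receptor (Il1r2) is a decoy that binds the cytokine, and the IL-18 binding protein (Il18bp) captures IL-18. The accessory protein Il1rap joins the ligand-bound receptor to form the signalling complex. In fatty liver disease this pathway is known as a source of inflammatory signals. Transcript levels say nothing of processing or secretion, which were not measured.

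In the GENCODE M21 annotation of GRCm38, Il1a (chr2:129299610-129309972, minus strand) and Il1b (chr2:129364570-129371139, minus strand) lie in the same orientation with 54597 bases between them. Il1rn lies apart on the same chromosome (chr2:24336853-24351494, plus strand). The other members are at chr1:40074079-40125231 (Il1r2), chr16:26581704-26730117 (Il1rap), chr9:50554827-50581840 (Il18), chr7:102014885-102018690 (Il18bp), chr11:59541568-59566956 (Nlrp3) and chr9:5298517-5307265 (Casp1). All 9 are protein coding genes. The promoters shown belong to Il1b and its neighbour Il1a, to the antagonist Il1rn, and to the sensor Nlrp3, the 4 members by which the ligands, their antagonist and the inflammasome are compared in the results. They are the 250 bases before the RefSeq start site (GRCm38.p6), 5′ to 3′ on the strand of the gene. Where RefSeq gives several start sites, the one nearest the 5′ end of the gene was taken. Capitals mark matches to the motifs that were searched on both strands.
Il1b, chr2:129371140-129371389, minus strand: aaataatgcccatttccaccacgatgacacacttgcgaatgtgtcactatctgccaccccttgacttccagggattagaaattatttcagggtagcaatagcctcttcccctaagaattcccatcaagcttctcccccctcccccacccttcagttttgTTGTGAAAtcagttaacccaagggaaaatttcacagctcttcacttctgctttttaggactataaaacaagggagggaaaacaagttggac
Il1a, chr2:129309973-129310222, minus strand: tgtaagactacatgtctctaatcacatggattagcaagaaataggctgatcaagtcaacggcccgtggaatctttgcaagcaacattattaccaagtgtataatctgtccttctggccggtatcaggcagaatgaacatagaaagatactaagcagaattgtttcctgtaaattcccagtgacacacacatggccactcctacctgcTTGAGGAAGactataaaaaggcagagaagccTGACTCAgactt
Il1rn, chr2:24336610-24336859, plus strand: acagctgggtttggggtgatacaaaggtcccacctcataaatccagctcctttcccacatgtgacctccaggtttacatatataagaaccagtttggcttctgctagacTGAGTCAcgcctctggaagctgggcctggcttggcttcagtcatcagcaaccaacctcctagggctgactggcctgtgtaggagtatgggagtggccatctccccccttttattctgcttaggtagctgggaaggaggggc
Nlrp3, chr11:59541319-59541568, plus strand: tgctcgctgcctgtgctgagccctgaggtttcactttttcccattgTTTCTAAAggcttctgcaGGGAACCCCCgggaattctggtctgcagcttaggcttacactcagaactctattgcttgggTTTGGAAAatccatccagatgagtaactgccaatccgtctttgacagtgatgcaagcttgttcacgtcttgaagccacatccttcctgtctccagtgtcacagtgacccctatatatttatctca

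The motifs were AP-1 (TGANTCA), C/EBP (TTNNGNAA), PU.1 (GAGGAAG), the interferon element ISRE and NF-κB, the last 2 searched by their consensus. The Il1b window held a C/EBP match at -91 from the start site and none of the others. The Il1a window held C/EBP at -43, PU.1 overlapping it at -41 and AP-1 at -12. The Il1rn window held AP-1 at -141. The Nlrp3 window held C/EBP at -204 and -125 and NF-κB at -186. Windows of other start sites, not shown, held other matches. For Il1rn these were C/EBP only, at -81 in one and at -161, -65 and -64 in another. For Nlrp3 they were C/EBP at -23 and PU.1 at -130 and -36. Of all 32851 promoter windows of this length, 36.8% held C/EBP, 10.6% PU.1, 7.25% NF-κB, 6.75% AP-1 and 2.98% ISRE. These matches describe letters only.

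The libraries differed in depth with diet. The NCD libraries held 7518597 and 7428431 UMIs (unique molecular identifiers, each counting 1 captured RNA molecule), and the MCD libraries 32975974 and 37772284. After filtering, 9609 cells remained, 1735 and 1786 from NCD and 2950 and 3138 from MCD, with medians of 2173 and 2253 against 12038 and 12300 UMIs per cell. More than 10% mitochondrial UMIs removed 37.2% and 33.6% of the NCD barcodes and 11.6% and 9.44% of the MCD barcodes. Between 4 and 12 barcodes were shared by any pair of libraries. No doublet caller was run, so doublets must be taken as still present. Of 24 clusters, most held cells of 1 diet, and they were named from marker lists after the members and their pathway genes had been left out of the clustering.

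The named classes that matter here were Ly6Chi-like monocytes (403, 430, 739 and 907 cells in NCD 1, NCD 2, MCD 1 and MCD 2), Ly6Clo-like monocytes (187, 213, 193 and 229), C1q macrophage-like cells (249 and 161 on NCD, 4 and 2 on MCD) and lipid-associated macrophage-like cells (3 and 2 on NCD, 374 and 286 on MCD). Ly6Chi monocytes are the inflammatory form that enters tissue, and Ly6Clo monocytes patrol vessels. These 4 classes together, 4382 cells, are called the monocyte and macrophage cells. The last 2 classes were also joined as macrophages, since each came almost wholly from 1 diet and neither could be fitted alone. Different clusters held the Ly6Chi-like cells of each diet (cluster 3 on NCD, cluster 1 on MCD), as they did the Ly6Clo-like cells (11 and 9), the cDC2-like cells (7 and 8) and most endothelial-like cells (6 on NCD, 13 and 16 on MCD). Other groups were cDC2-like dendritic cells (350, 276, 222 and 370 cells), endothelial-like cells (221, 381, 102 and 225), and 2 unnamed groups. Cluster 2 (111, 41, 734 and 490 cells) was led by Retnlg, G0s2, Ccr3 and Alox15, and cluster 5 (0, 0, 334 and 319 cells) by Saa3, Sod2, Fpr2 and Tlr2. The MCD cells of cluster 2 were called eosinophil (3 markers among the top 50 genes) and its NCD cells were not (2 markers). The cluster stayed unnamed. Libraries are the replicates. UMIs were summed over the cells of a class in each library, so a lower sum cannot be told apart as fewer cells of a type or less RNA per cell.

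In the monocyte and macrophage cells, 6 members rose on MCD (Il1a, Il1b, Il1rn, Il1r2, Nlrp3 and Casp1) and 3 fell (Il1rap, Il18 and Il18bp). Il1b rose most, 4.76-fold, while Nlrp3 and Casp1 rose 1.33-fold and 1.39-fold. Of all 11014 genes tested in these cells, 39.9% passed the same threshold (edgeR quasi-likelihood test, Benjamini-Hochberg adjusted p under 0.05), 21.1% higher and 18.9% lower, so passing it is common here. The values of the NCD and MCD libraries did not overlap for any of the 9. The share of all genes without overlap is not given here, so this says nothing particular to the members. The median log2 difference of the members was 0.47, beside 0.03 over all genes tested. Since the members were chosen with earlier results of these data known, this comparison only describes them. Scaling decides much of the overall balance: 52.8% of the genes called were higher with the TMM factors used here and 80.2% without them, and the median of all genes moved from 0.03 to 0.41. No member changed direction without the factors, but Il1rap (-0.57, adjusted p = 0.0766) and Il18 (-0.40, adjusted p = 0.101) no longer passed. By DESeq2, Nlrp3 (0.39, adjusted p = 0.0691) and Casp1 (0.45, 0.0626) did not pass, which left 4 members higher and 3 lower. After thinning to the smallest library Casp1 (0.36, edgeR adjusted p = 0.0883), Il1rap (-0.63, 0.143) and Il18bp (-0.97, 0.0562) did not pass.

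**Figure D1:**
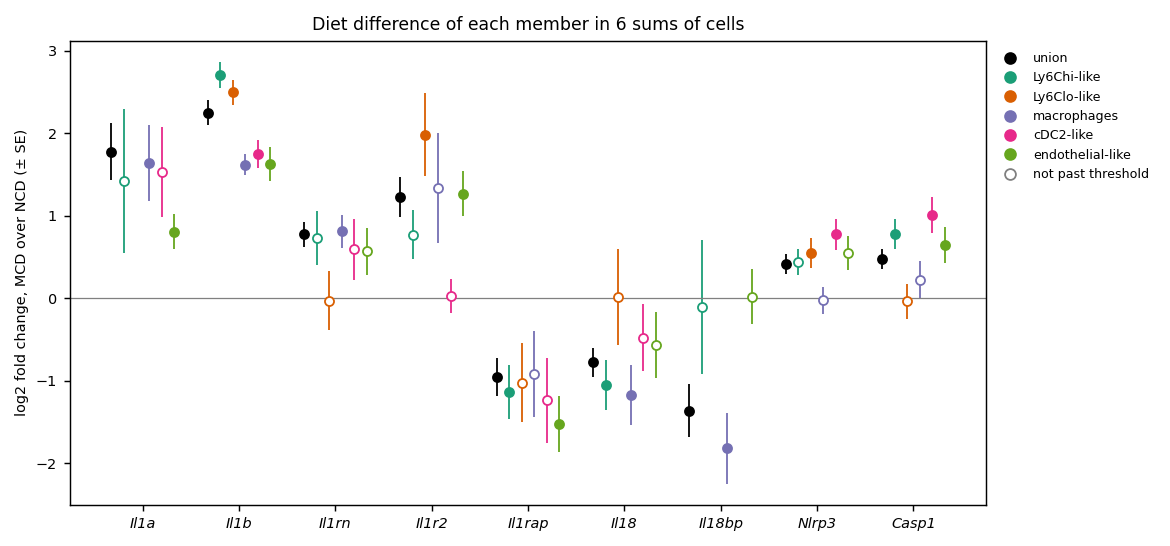
Log2 difference of each member between MCD and NCD (y axis, positive is higher on MCD) in 6 sums of cells, from edgeR fits with 2 libraries per diet. Bars are standard errors and open circles did not pass an adjusted p of 0.05. Il1b lies between 1.62 and 2.71 in all 6 sums, and Il1rap lies below 0 in each, past the threshold in 3 of them.

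Il1b encodes the precursor of IL-1β. Its normalised CPM (the UMIs of a gene relative to all UMIs of the sum, after TMM scaling) in the monocyte and macrophage cells was 348.9 and 248 in the NCD libraries and 1404 and 1438 in the MCD libraries. The MCD libraries lay close together, and each was more than 4 times as high as the higher NCD library. The means were 298 ± 71.5 and 1421 ± 24.1 (SD, n = 2 per diet), a log2 difference of 2.25 ± 0.15 (SE, edgeR adjusted p = 2.31e-05). Of the genes tested, 1.73% had a higher log2 difference. Several values moved with diet in the same cells. The sum of the 9 C1q macrophage markers went from 1677 and 1449 to 4228 and 5338 CPM, and that of the 10 lipid-associated macrophage markers from 979 and 906 to 3809 and 3418 CPM, with all markers of both lists detected in every library. The 8 hepatocyte markers summed to 72.9 and 81.3 CPM on NCD and 212 and 234 on MCD, with 6 and 5 markers detected on NCD and 8 on MCD. Their part in the members' differences was not tested.

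The rise of Il1b was not limited to 1 class. In Ly6Chi-like monocytes the normalised CPM of Il1b was 236 and 162 on NCD and 1300 and 1279 on MCD, a log2 difference of 2.71 ± 0.16 (edgeR adjusted p = 1.18e-06). In Ly6Clo-like monocytes it was 255 and 249.8 on NCD and 1257 and 1584 on MCD, a difference of 2.49 ± 0.15 (edgeR adjusted p = 2.20e-07). Both monocyte classes thus had NCD values within a narrow low range and MCD values at least 4 times higher. Il1b started higher in the joined macrophages, at 576 and 447, and reached 1547 and 1624 (1.62 ± 0.13, edgeR adjusted p = 5.06e-07). In cDC2-like cells it went from 468 and 294 to 1314 and 1262 (1.75 ± 0.16, edgeR adjusted p = 6.92e-06). The MCD values of these 4 groups lay between 1257 and 1624, whereas the NCD values spread from 162 to 576. In endothelial-like cells Il1b was 423 and 256 on NCD and 1155 and 934 on MCD (1.63 ± 0.21, edgeR adjusted p = 1.67e-04). Those sums also held 3375, 3130, 3388 and 3522 CPM of the 10 Ly6Chi monocyte markers, all 10 detected in each library, and what monocyte RNA or joined cells contributed to the endothelial values was not tested.

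Cells with an Il1b UMI became more frequent at equal depth. After each cell was thinned to 1000 UMIs, 11.7% (95% Clopper-Pearson interval 8.70 to 15.2%) and 9.58% (6.96 to 12.8%) of the Ly6Chi-like cells on NCD held one, and 44.0% (40.4 to 47.6%) and 42.1% (38.8 to 45.3%) on MCD. Without thinning the shares were 17.9 and 16.5% against 79.7 and 80.6%. In Ly6Clo-like cells the thinned shares were 16.6 and 13.8% on NCD and 45.03 and 46.5% on MCD. C1q macrophage-like cells on NCD stood at 25.1 and 25.3%, above both monocyte classes of the same libraries. On MCD the share was 51.3 and 50.7% in lipid-associated macrophage-like cells, 55.4 and 61.8% in cluster 5, and 65.9 and 40.3% in cluster 17, which interferon genes led. NK-like cells, which are not a known source of Il1b, gave the background share of 0 of 38 cells (up to 7.89%) and 1.61% on NCD and 9.26 and 4.55% on MCD. Median depth in Ly6Chi-like cells was 1961 and 2002 UMIs on NCD and 13542 and 12667 on MCD. Cells under 1000 UMIs were left out: 2 and 1 Ly6Chi-like cells in NCD 2 and MCD 2, and 6, 28 and 1 NK-like cells in NCD 1, NCD 2 and MCD 2. All intervals cover counting error only.

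**Figure D2:**
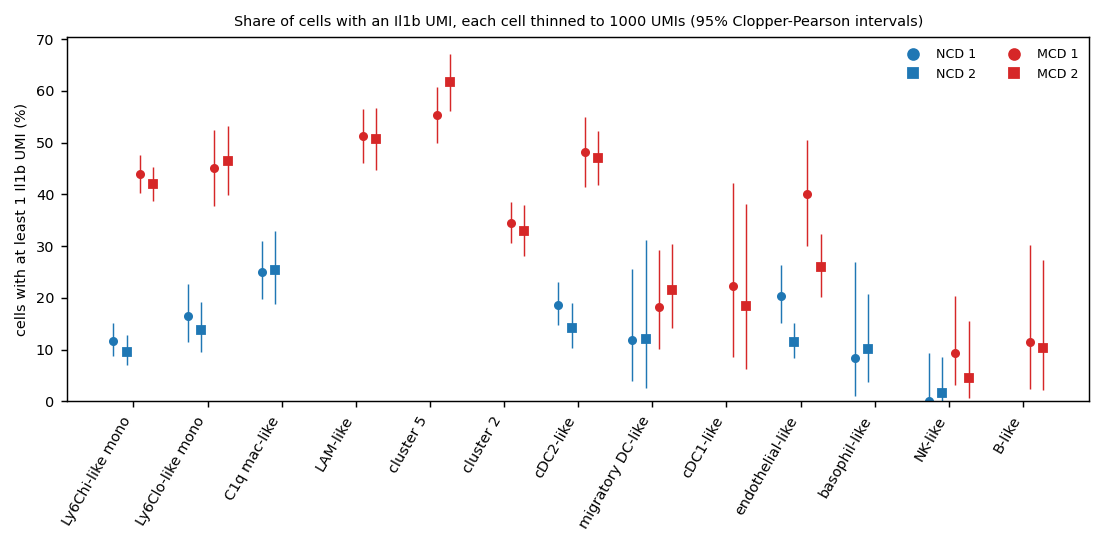
Share of cells with at least 1 Il1b UMI (y axis, percent) after thinning every cell to 1000 UMIs, by cell group and library, with 95% Clopper-Pearson intervals. Libraries with at least 20 cells of a group are shown. Both MCD libraries lie above both NCD libraries in the 2 monocyte groups and in cDC2-like cells, and NK-like cells stay below 10%.

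Between classes, levels of Il1b are given as plain CPM of the summed UMIs with no test, since the same cells were clustered. On MCD the order was cluster 5 (2238 and 2720 CPM), cluster 17 (2029 and 1935), lipid-associated macrophage-like cells (1782 and 1834), cDC2-like (1611 and 1572), Ly6Clo-like (1415 and 1716) and Ly6Chi-like cells (1578 and 1506). The last 3 of these overlap in their library values and cannot be ordered. Endothelial-like cells (1213 and 952) and cluster 2 (683 and 662) came lower, and cDC1-like cells had 146 and 277. On NCD, cluster 2 (783 and 503, from 69 and 16 UMIs) and C1q macrophage-like cells (488 and 399) stood highest. They were above cDC2-like (364 and 242) and Ly6Clo-like cells (222 and 227), while Ly6Chi-like cells had 189.6 and 139. NK-like cells had 36.9 and 93.0 on NCD and 588 and 160 on MCD, where 66.5% of the UMIs of the higher library came from 1 cell.

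Il1a encodes IL-1α, which is active without caspase 1 cleavage and is released by damaged cells. In the monocyte and macrophage cells it was low, at 3.44 and 2.39 normalised CPM on NCD (6 and 4 UMIs) and 9.25 and 10.8 on MCD (195 and 234 UMIs). The MCD libraries were higher without overlap, and the log2 difference was 1.77 ± 0.35 (edgeR adjusted p = 0.00433). Without the lipid-associated macrophage-like cells the difference was 0.38 (edgeR adjusted p = 0.532). That sum kept the C1q macrophage-like cells of NCD and almost no macrophages of MCD, so the source of the rise was not tested. Il1a in the joined macrophages went from 8.68 and 8.09 to 21.8 and 31.3 (1.64 ± 0.46, edgeR adjusted p = 0.0155), and it lost the call without NCD replicate 1 (adjusted p = 0.0691).

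The highest levels of Il1a were elsewhere. Endothelial-like cells had 28.4 and 38.4 plain CPM on NCD and 73.8 and 58.3 on MCD. On the normalised scale these were 30.3 and 39.9 against 70.3 and 57.2, a log2 difference of 0.81 ± 0.21 (edgeR adjusted p = 0.0113). Cluster 2 reached 56.7, 62.9, 44.3 and 69.9 plain CPM in NCD 1, NCD 2, MCD 1 and MCD 2, the NCD values from 5 and 2 UMIs. Lipid-associated macrophage-like cells followed with 25.0 and 35.4, cluster 5 with 14.7 and 20.7 and cDC2-like cells on MCD with 12.6 and 18.1, although 70.5% of the 44 UMIs in MCD 1 came from 1 cDC2-like cell. Ly6Chi-like cells on MCD had 3.46 and 5.32. In Ly6Clo-like cells on NCD no UMI was found, which allows up to 5.63 and 5.62 CPM.

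Il18 encodes the precursor of IL-18, which acts on NK and T cells and, unlike Il1b, is made without prior stimulation in many cells. In the monocyte and macrophage cells its normalised CPM was 25.3 and 23.9 on NCD and 13.3 and 15.3 on MCD. Both MCD libraries were lower, and Il18 fell by 0.78 ± 0.18 on the log2 scale (edgeR adjusted p = 0.00874). With NCD replicate 1 left out it no longer passed (adjusted p = 0.0594). In Ly6Chi-like monocytes Il18 went from 43.3 and 20.2 to 14.3 and 15.6, a difference of -1.05 ± 0.30 (edgeR adjusted p = 0.0253), and without NCD replicate 1, the higher library, of -0.40 (adjusted p = 0.503). In the joined macrophages it went from 24.3 and 37.7 to 11.1 and 15.7 (-1.17 ± 0.36, edgeR adjusted p = 0.0256), and without NCD replicate 2 or MCD replicate 1 the adjusted p was 0.165 or 0.0840. The direction of Il18 over all retained cells was not resolved (17.1 and 15.5 against 15.3 and 16.2, edgeR adjusted p = 0.779). In plain CPM the highest Il18 level on MCD was in cluster 17 (73.3 and 50.5), which interferon genes led. Cluster 20, also led by interferon genes, was highest in NCD 2 (87.0, from 7 UMIs). In NCD 1 it had 26.0 (2 UMIs), below Ly6Chi-like cells at 34.8 (29 UMIs). Cluster 2 had no Il18 UMI on NCD and 1.97 and 3.18 CPM on MCD.

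The restraining genes did not move as a group: Il1rn and Il1r2 rose and Il18bp fell. Il1rn, the receptor antagonist, was at 76.3 and 78.2 normalised CPM on NCD and 149 and 115 on MCD in the monocyte and macrophage cells. The log2 difference was 0.77 ± 0.15 (edgeR adjusted p = 0.00414), and it depended on which cells were summed. The sum without lipid-associated macrophage-like cells kept the C1q macrophage-like cells of NCD but almost no macrophages of MCD. There Il1rn was lower by 0.90 (edgeR adjusted p = 0.00616), which is not a fall within a class. In the joined macrophages it went from 149 and 275 to 395 and 323 (0.81 ± 0.20, edgeR adjusted p = 0.00809), with an adjusted p of 0.0745 without NCD replicate 1. In Ly6Chi-like monocytes it had 23.9 and 21.5 on NCD and 29.6 and 45.2 on MCD (0.73 ± 0.32, edgeR adjusted p = 0.119). In Ly6Clo-like monocytes the NCD libraries were far apart (66.9 and 24.8), on either side of the MCD libraries (34.6 and 52.9), and 48.4% of the 31 UMIs in NCD 1 came from 1 cell.

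Il1rn was highest in cluster 2 and in lipid-associated macrophage-like cells. In plain CPM it reached 590 and 1258 in cluster 2 on NCD (52 and 40 UMIs) and 530 and 438 on MCD. Of the 40 UMIs in NCD 2, 55.0% came from 1 cell. Lipid-associated macrophage-like cells had 456 and 363 and C1q macrophage-like cells 125 and 244. On MCD, cluster 5 had 193 and 267 and cluster 17 had 199 and 190, near the C1q macrophage-like cells of NCD. Monocytes lay lower, at 19.2 and 18.5 on NCD and 35.9 and 53.2 on MCD in Ly6Chi-like cells. cDC2-like cells were lower again, at 12.2 and 6.71 on NCD and 19.99 and 25.4 on MCD. At 1000 UMIs per cell, 27.3 and 24.5% of the lipid-associated macrophage-like cells held an Il1rn UMI and 11.1 and 17.1% of the C1q macrophage-like cells. In Ly6Chi-like cells the share was 1.74 and 1.17% on NCD and 3.52 and 3.75% on MCD, near the share of NK-like cells (0 to 2.63%).

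**Figure D3:**
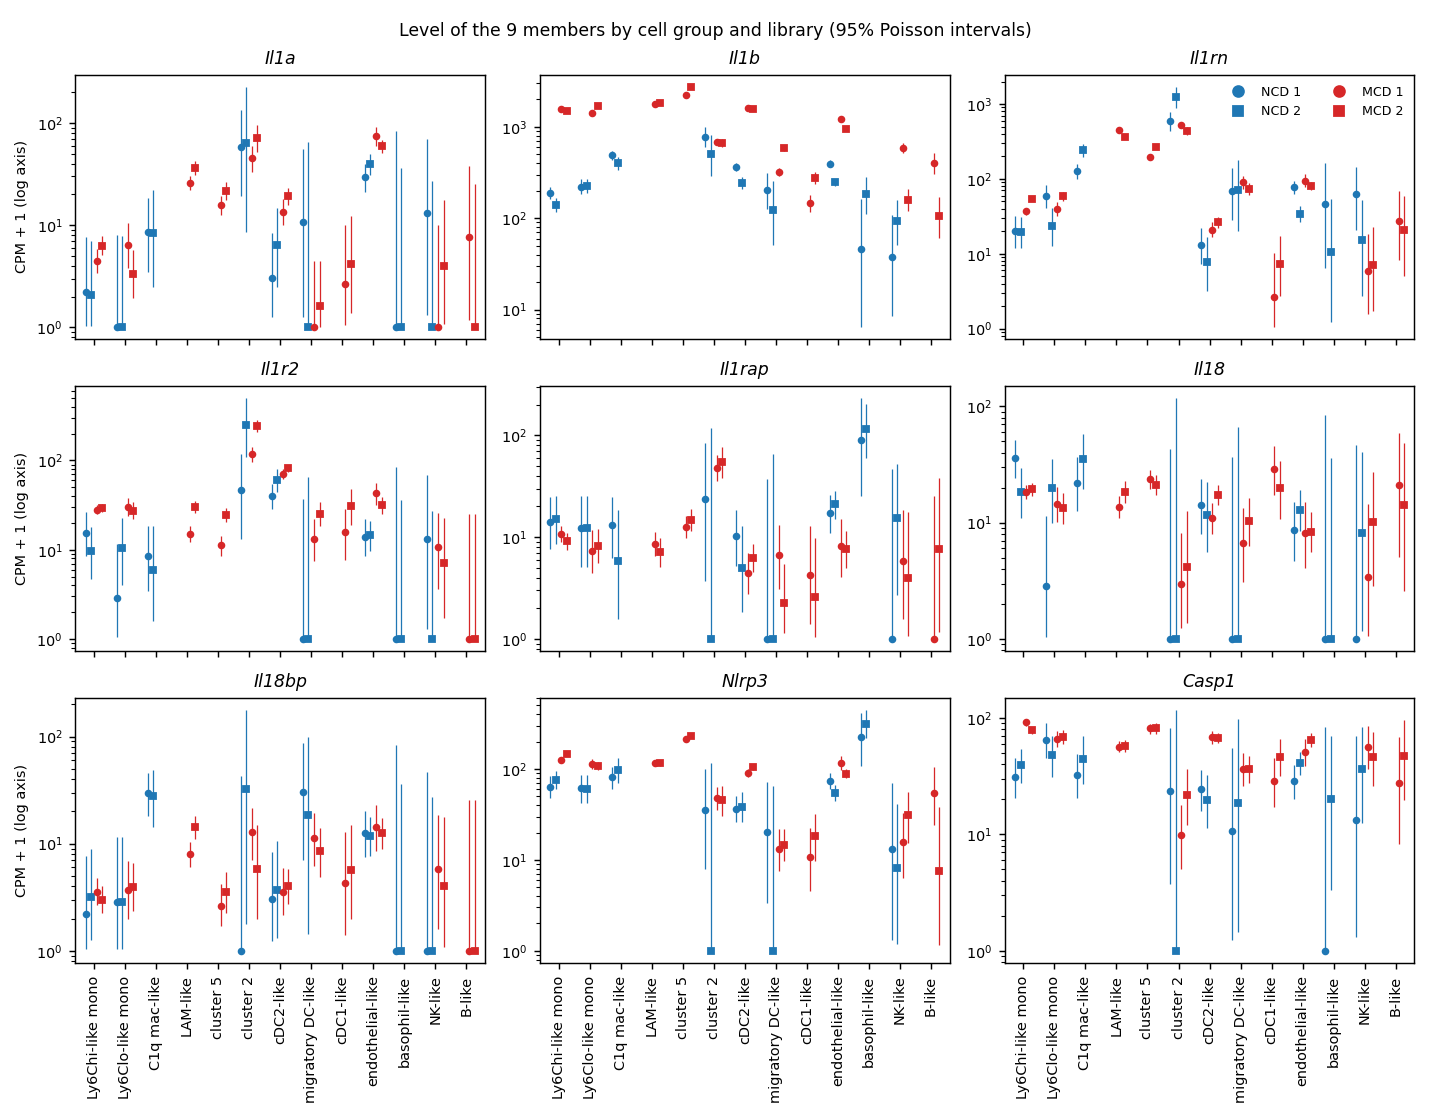
Level of each member in plain CPM plus 1 (y axes, log scale) by cell group and library with exact 95% Poisson intervals, for groups with at least 20 cells in a library. Il1rn and Il1r2 are highest in cluster 2, Il1rap and Nlrp3 in basophil-like cells, and Il1b in cluster 5. The Nlrp3 intervals of basophil-like cells overlap those of cluster 5.

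The decoy receptor gene Il1r2 had 10.3 and 8.96 normalised CPM on NCD and 20.03 and 25.3 on MCD in the monocyte and macrophage cells. It was 2.34-fold higher without overlap (log2 difference 1.23 ± 0.24, edgeR adjusted p = 0.00438). In Ly6Clo-like monocytes it went from 2.16 and 10.3 (1 and 5 UMIs) to 26.1 and 24.5 (1.98 ± 0.50, edgeR adjusted p = 0.0110), and without NCD replicate 1 the difference was 1.29 (adjusted p = 0.127). In endothelial-like cells it went from 13.9 and 14.0 to 39.8 and 29.98 (1.27 ± 0.27, edgeR adjusted p = 0.00432). cDC2-like cells held more of it and showed no such difference: 49.7 and 71.8 on NCD against 56.4 and 65.1 on MCD overlapped (0.03 ± 0.20, edgeR adjusted p = 0.943). Of all Il1r2 UMIs in retained cells, cDC2-like cells held 43.7 and 44.0% on NCD and 25.5 and 30.7% on MCD. Cluster 2 had the highest plain CPM, at 45.4 and 252 on NCD (4 and 8 UMIs) and 116 and 243 on MCD, and its libraries differed among themselves as much as between diets. In NCD 2, 75.0% of the 8 UMIs came from 1 cell.

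Il18bp, the secreted inhibitor of IL-18, went from 12.1 and 8.36 normalised CPM on NCD to 3.46 and 4.48 on MCD in the monocyte and macrophage cells. It fell by 1.36 ± 0.32 on the log2 scale (edgeR adjusted p = 0.0108), from 21 and 14 UMIs on NCD, and with NCD replicate 1 left out it no longer passed (adjusted p = 0.105). With clusters drawn at Leiden resolution 0.5, which changes the cells summed, the difference turned to 0.68 (edgeR adjusted p = 0.338). In the joined macrophages it went from 33.0 and 29.7 to 6.04 and 12.3 (-1.82 ± 0.43, edgeR adjusted p = 0.00540), and without NCD replicate 1 its adjusted p was 0.0561. The C1q macrophage-like cells of NCD had 28.6 and 26.8 plain CPM, the lipid-associated macrophage-like cells of MCD 6.97 and 13.2, and monocytes at most 2.94. Endothelial-like cells were level at 11.5, 10.8, 13.3 and 11.6. The Kupffer cell markers moved the same way as Il18bp: in the joined macrophages all 9 summed to 167 and 698 CPM on NCD and 16.5 and 23.4 on MCD, with 7 to 9 detected per library. Their part was not tested.

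Il1rap, the accessory chain of the IL-1, IL-33 and IL-36 receptors, had 14.3 and 13.1 normalised CPM on NCD and 7.50 and 6.65 on MCD in the monocyte and macrophage cells. It fell by 0.96 ± 0.23 on the log2 scale (edgeR adjusted p = 0.0117), and without NCD replicate 1 the adjusted p was 0.0653. In Ly6Chi-like monocytes it went from 16.4 and 16.4 to 8.06 and 6.88 (-1.14 ± 0.33, edgeR adjusted p = 0.0260), a call that was lost without any 1 of the 4 libraries (adjusted p 0.0607 to 0.139). In endothelial-like cells it went from 17.2 and 20.8 to 6.77 and 6.55 (-1.53 ± 0.34, edgeR adjusted p = 0.00554), with 0.0790 without NCD replicate 2. NCD libraries were above MCD libraries in each of these groups. Basophil-like cells on NCD had the highest plain CPM (89.5 and 115, from 4 and 12 UMIs), followed by cluster 2 on MCD (47.2 and 54.0). The signalling receptor Il1r1 itself was nearly confined to the endothelial-like cells, which held 22, 45, 55 and 118 of the 24, 50, 61 and 135 Il1r1 UMIs of the libraries. Its plain CPM there was 16.9 and 24.3 on NCD and 48.9 and 41.4 on MCD, and at most 5.62 in every other group shown. Il18r1, the IL-18 receptor chain, was found in NK-like cells (160, 115, 219 and 138 CPM) and in basophil-like cells on NCD (291 and 439). These 2 receptor genes were picked after their values had been seen.

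NLRP3 is the sensor that assembles the inflammasome, and caspase 1 is its protease. Nlrp3 had 80.9 and 84.2 normalised CPM on NCD and 103 and 116.6 on MCD in the monocyte and macrophage cells, a log2 difference of 0.41 ± 0.12 (edgeR adjusted p = 0.0241). The difference was small and it no longer passed when NCD replicate 1 was left out (adjusted p = 0.0895), nor without NCD replicate 2 (0.0641) or MCD replicate 2 (0.150). In cDC2-like cells Nlrp3 went from 45.8 and 45.7 to 72.9 and 83.0 (0.77 ± 0.18, edgeR adjusted p = 0.00740), with 0.0723 without MCD replicate 2. In Ly6Clo-like monocytes it went from 69.1 and 66.1 to 98.9 and 98.8 (0.55 ± 0.18, edgeR adjusted p = 0.0375), with 0.139, 0.190 and 0.0517 without NCD replicate 1, NCD replicate 2 or MCD replicate 2. The diets overlapped in the joined macrophages (98.9 and 107.8 against 99.0 and 102.6, edgeR adjusted p = 0.923). Basophil-like cells on NCD had the highest plain CPM of Nlrp3 (224 and 315), then cluster 5 (211 and 231), and migratory DC-like cells were among the lowest, at 0 to 19.5.

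Casp1 had 46.5 and 46.6 normalised CPM on NCD and 66.2 and 63.0 on MCD in the monocyte and macrophage cells, a log2 difference of 0.47 ± 0.12 (edgeR adjusted p = 0.0130). Without MCD replicate 1 the adjusted p was 0.0547. In Ly6Chi-like monocytes it went from 37.3 and 44.2 to 75.0 and 65.7 (0.78 ± 0.18, edgeR adjusted p = 0.00967), with 0.0904 and 0.0595 without NCD replicate 1 or 2. In cDC2-like cells it went from 30.1 and 22.8 to 54.7 and 53.05 (1.01 ± 0.22, edgeR adjusted p = 0.00415), with 0.0521 and 0.0513 without MCD replicate 1 or 2. In endothelial-like cells it went from 29.4 and 41.6 to 47.4 and 62.7 (0.64 ± 0.22, edgeR adjusted p = 0.0427), with 0.193 and 0.379 without NCD replicate 1 or MCD replicate 2. Every MCD library was above every NCD library in these 4 sums. Ly6Clo-like monocytes and the joined macrophages overlapped, with 73.4 and 51.6 against 58.3 and 62.8 in the former (edgeR adjusted p = 0.925) and 38.2 and 48.5 against 48.5 and 50.7 in the latter (0.503). The highest plain CPM of Casp1 was in cluster 17 on MCD (139 and 128), and cluster 2 was low on MCD (8.85 and 20.6).

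The members that passed differed by class, and their counts are set beside the share of all genes that passed. Since the members were chosen with earlier results of these data known, the counts only describe them. In Ly6Chi-like monocytes 4 of 9 members passed (Il1b and Casp1 higher, Il18 and Il1rap lower), where 27.9% of all genes did. In Ly6Clo-like monocytes 3 of the 7 tested passed, all higher, where 26.4% did, and Il1a and Il18bp were too low to test. In the joined macrophages 5 of 9 passed (Il1a, Il1b and Il1rn higher, Il18 and Il18bp lower), where 28.7% did. In cDC2-like cells 3 of 8 passed, all higher, where 30.2% did, and in endothelial-like cells 5 of 9 (Il1rap lower, the others higher), where 29.5% did. Over all retained cells 7 of 9 passed (Il1b, Il1rn, Il1r2, Nlrp3 and Casp1 higher, Il1rap and Il18bp lower), where 49.1% did. Of these, Il1r2 no longer passed without NCD replicate 1 or 2 (adjusted p = 0.0726 and 0.0798), nor Il18bp without NCD replicate 1 or MCD replicate 1 (0.0911 and 0.0612). In cluster 2, 0 of the 6 tested passed by edgeR or by DESeq2, and 1, Il1rn, had an unadjusted p under 0.05, where 2.42% of all genes passed. Without TMM factors the share of higher genes among those called moved from 51.0 to 85.8% in Ly6Chi-like cells, from 52.1 to 79.6% in Ly6Clo-like cells, from 51.2 to 79.2% in the macrophages, from 49.1 to 88.5% in cDC2-like cells and from 54.8 to 68.5% in endothelial-like cells. In Ly6Chi-like sums the C1q markers also moved, from 807 and 685 to 3663 and 4267 CPM, with all 9 detected in each library, and their part was not tested.

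Whether a class responded differently was tested with a class by diet term, Ly6Chi-like monocytes being the reference. The joined macrophages were nearly all C1q macrophage-like on NCD and lipid-associated macrophage-like on MCD. Their term therefore cannot separate diet from cell type. Il1b differed less between the diets in the joined macrophages, by 1.11 ± 0.11 on the log2 scale (term -1.11, edgeR adjusted p = 5.10e-04), and in cDC2-like cells (term -0.91 ± 0.12, edgeR adjusted p = 8.16e-05). In both it was the only member past the threshold, of 9 and 8 tested (DESeq2 also called 1 in each), where 1.36% and 0.324% of all genes passed. Against Ly6Clo-like monocytes 0 of 7 members passed by edgeR or DESeq2, where 4.14% of all genes did. Il1rn and Casp1 had an unadjusted p under 0.05 there, and the Casp1 term was -0.80 ± 0.29 (edgeR adjusted p = 0.147, range 0.0510 to 0.800 over 11 other settings). Against cluster 2, 3 of 9 members passed (Il1b, Il1rn and Il1rap; 1 by DESeq2), where 6.25% of all genes did. The Il1rn term (-1.10) and the Il1rap term (3.10, from 2 NCD UMIs in cluster 2) no longer passed without MCD replicate 1 (adjusted p = 0.311 and 0.192) or MCD replicate 2 (0.927 and 0.390), nor without NCD replicate 2 (0.566 and 0.146). Without NCD replicate 1 the adjusted p was 0.0228 for Il1rn and 0.0858 for Il1rap. In cluster 2 the diets overlapped for Il1b, with 849 and 498 normalised CPM on NCD and 719 and 715 on MCD (term -2.28 ± 0.33, edgeR adjusted p = 6.69e-10). The NCD values came from 69 and 16 UMIs, of which 30.4 and 43.75% came from 1 cell. Without thinning, 10.8 and 14.6% of the cluster 2 cells held an Il1b UMI on NCD and 42.2 and 42.2% on MCD. Median depth there was 756 and 757 UMIs on NCD and 1313 and 1226 on MCD. The median term of all genes against cluster 2 was 0.55 and fell to -0.35 without TMM factors. The share of positive terms among those called moved without the factors from 75.9 to 29.7% against Ly6Clo-like cells, from 39.8 to 23.1% against the macrophages, from 63.3 to 81.2% against cDC2-like cells and from 91.8 to 24.4% against cluster 2.

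The balance of Il1b to its antagonist does not depend on scaling, since both are counted in the same sum. In the monocyte and macrophage cells there were 4.57 and 3.17 Il1b UMIs per Il1rn UMI on NCD and 9.44 and 12.5 on MCD, without overlap. With 2 libraries per diet the exact two-sided permutation test cannot go below 0.3333, which it gave here. The ratio was 9.88 and 7.53 against 44.0 and 28.3 in Ly6Chi-like cells, and 3.81 and 10.1 against 36.4 and 29.97 in Ly6Clo-like cells. In cDC2-like cells it was higher on both diets, 29.8 and 36.0 against 80.6 and 62.0. The groups nearly met in the joined macrophages, with 3.86 and 1.63 against 3.91 and 5.04. In cluster 2 they overlapped, with 1.33 and 0.400 against 1.29 and 1.51 (exact p = 0.667). There 55.0% of the Il1rn UMIs in NCD 2, the library with 0.400, came from 1 cell. The log2 difference in the monocyte and macrophage cells was 1.51. It was 3.17 without the lipid-associated macrophage-like cells, a sum that kept the C1q macrophage-like cells of NCD and almost no macrophages of MCD. The 3.17 is therefore no change within a class.

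**Figure D4:**
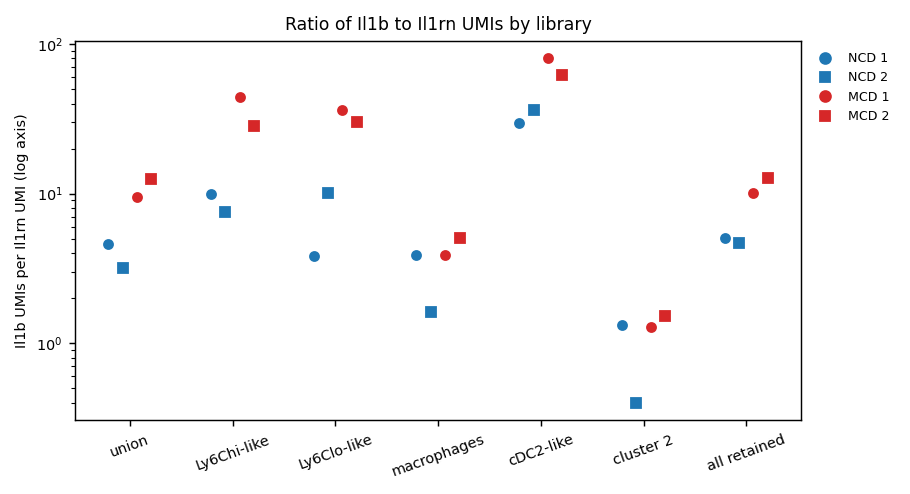
Il1b UMIs per Il1rn UMI (y axis, log scale) in 7 sums of cells, 1 point per library. The MCD libraries lie above the NCD libraries in the monocyte and dendritic cell sums and overlap with them in cluster 2.

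The cells that held the UMIs of each transcript differed with diet, and so did the cells that held all UMIs. On NCD, endothelial-like cells held 31.4 and 38.8% of all Il1b UMIs in retained cells, beside 26.2 and 35.7% of all UMIs, and cDC2-like cells held 21.7 and 15.3%, beside 19.8 and 14.4% of all UMIs. On MCD, Ly6Chi-like cells held 31.5 and 29.6% of them, beside 31.3 and 30.9% of all UMIs. Cluster 5 held 21.7 and 20.5%, beside 15.2 and 11.8% of all UMIs, and lipid-associated macrophage-like cells 20.7 and 14.7%, beside 18.2 and 12.6%. Of the Il1a UMIs, endothelial-like cells held 71.2 and 87.7% on NCD, and 18.5 and 25.5% on MCD. Their plain CPM of Il1a went from 28.4 and 38.4 to 73.8 and 58.3. On MCD they held only 1125341 and 2847635 of 32322371 and 37186105 UMIs. The endothelial-like sums also held Ly6Chi monocyte markers, and what monocyte RNA or joined cells contributed to their shares was not tested. Lipid-associated macrophage-like cells held none of the Il1a UMIs on NCD and 32.8 and 25.5% on MCD. They also held 53.3 and 36.9% of the Il1rn UMIs on MCD, whereas on NCD the C1q macrophage-like cells held 25.6 and 39.8%. Most Il18bp UMIs on NCD were held by the endothelial-like (33.3 and 52.6%) and C1q macrophage-like cells (42.2 and 28.9%). Since the kept cells differ between diets, these shares describe the libraries and not the liver.

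**Figure D5:**
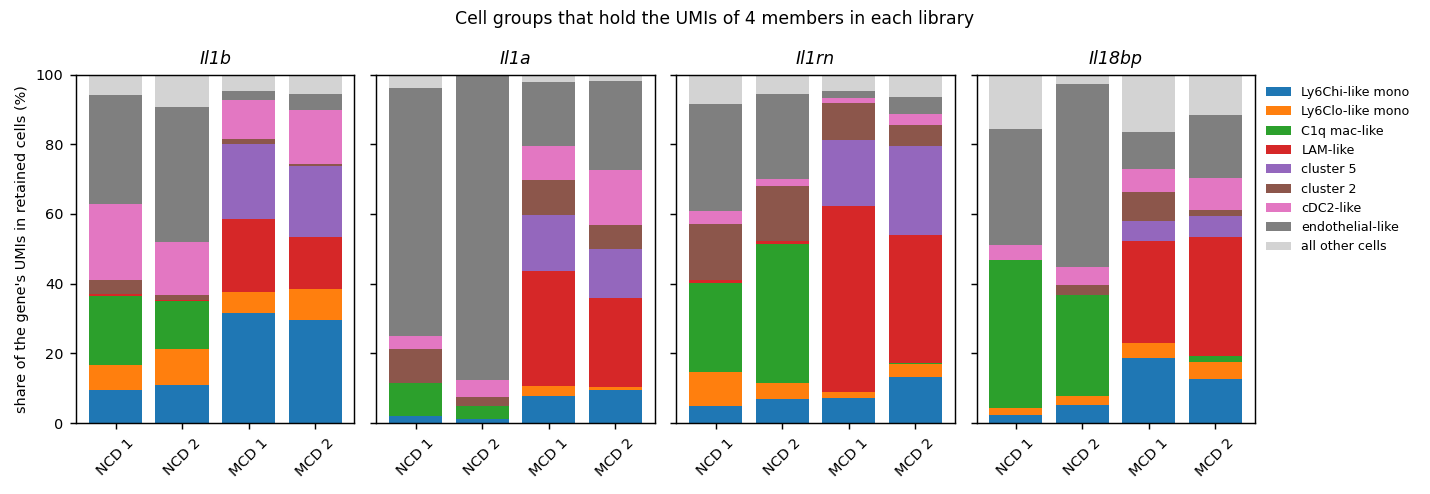
Share of the UMIs of Il1b, Il1a, Il1rn and Il18bp in retained cells (y axis, percent) that each cell group holds, by library. Endothelial-like cells hold most Il1a UMIs on NCD, and lipid-associated macrophage-like cells hold 53.3 and 36.9% of the Il1rn UMIs on MCD.

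Of 95 other genes listed for the pathway, 91 were in the files, and their differences in the monocyte and macrophage cells are given by list. The lists too were chosen with earlier results of these data known, so their counts and medians only describe them. Of all genes tested there, 39.9% passed, 21.1% higher and 18.9% lower. In the priming and NF-κB list 8 of 16 rose, none fell and 8 did not pass, with a median log2 difference of 0.56 beside 0.03 for all genes. Cd14, the co-receptor for endotoxin, went from 149 and 193 to 582 and 831 normalised CPM (2.05 ± 0.19). Nfkb2 and Relb, the subunits of the non-canonical NF-κB dimer, rose by 1.97 ± 0.17 and 1.46 ± 0.17. Of 16 receptor signalling genes 2 rose, 3 fell and 11 did not pass (median -0.06). The adaptor Myd88 went from 58.5 and 66.3 to 103.9 and 94.6 and the kinase Irak2 from 41.9 and 45.4 to 62.4 and 74.7, while the ubiquitin ligase Peli1 went from 197 and 203 to 109.8 and 101.7. Tab2 and Ikbkb also fell, by 0.43 and 0.33 on the log2 scale.

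Of 14 inflammasome sensors and adaptors tested (17 in the files), 2 rose, 2 fell and 10 did not pass (median 0.17). Nlrp1b, another sensor, and Card9, an adaptor, rose by 1.37 ± 0.46 and 0.73 ± 0.22. Nek7, which NLRP3 needs to assemble, went from 70.0 and 83.0 to 51.3 and 50.8 normalised CPM, and Txnip from 261 and 240.1 to 136 and 135. The adaptor ASC (Pycard) had 127 and 133 on NCD and 158 and 155 on MCD (edgeR adjusted p = 0.0703). Of 13 genes for caspases, gasdermins and release, 3 rose, 2 fell and 8 did not pass (median 0.12). Ninj1, which ruptures the membrane of dying cells, went from 45.9 and 52.0 to 221 and 230.3 (2.21 ± 0.12, edgeR adjusted p = 1.12e-05). Gsdmd, whose cut product forms the pore through which IL-1β leaves, went from 29.3 and 31.1 to 69.9 and 71.2 (1.23 ± 0.13, edgeR adjusted p = 1.75e-04), and Capn2 rose by 0.85 ± 0.17. Dfna5, the gasdermin E gene, and Serpinb9 fell by 1.16 and 1.73 on the log2 scale.

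Among 13 tested genes for factors that IL-1 and TNF induce (16 in the files), 4 rose, 1 fell and 8 did not pass (median 0.67). The neutrophil attractants Cxcl2 and Cxcl3 went from 332 and 346 to 928 and 1100.2 and from 0.574 and 1.79 to 18.0 and 7.11 normalised CPM. Csf3, the granulocyte growth factor, had no UMI on NCD and 41 and 59 on MCD, at least 2.67-fold higher after TMM scaling against a floor of 3 counts over the NCD libraries. Il12b had none on NCD and 37 and 29 on MCD, at least 1.76-fold higher on the same scale, and the list's median was 0.67 with both at these bounds. Ptgs2 went from 275 and 172 to 133 and 151. Tnf (87.2 and 70.5 against 82.2 and 169) and Il6 (16.6 and 24.5 against 9.30 and 35.6) overlapped and did not pass. Cxcl2, Tnf, Il6 and Pycard were named after their values had been seen. None of 6 other IL-1 family ligands in the files was high enough to test. Of 7 other receptors 3 were, and 0 passed by edgeR or DESeq2, with 0 at an unadjusted p under 0.05.

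Over 48 sums of a class in a library, and among 4227 genes with at least 100 CPM in at least 1 of them, the level of Il1b was most like that of Mapkapk2 (Pearson r = 0.85 of log2 CPM with 20 added), Pkm (0.84) and Spi1 (0.83). Mapkapk2 encodes a kinase downstream of p38 and Spi1 encodes PU.1, the transcription factor of myeloid cells. Il1rn was most like Rnf19b (0.87), Ptafr (0.85) and Cxcl2 (0.82), and Nlrp3 most like Gstm1 (0.81), Ier3 (0.81) and Lilrb4a (0.77). Il18 was most like Mnda (0.83), Slfn8 (0.80) and Pyhin1 (0.80). Many of these sums share a library and its depth, so the values describe likeness only.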

How the data were processed

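The 9 members and all gene lists were chosen with earlier results of these data known. The authors deposited, for each of 4 libraries, a matrix of UMI counts per gene and cell barcode made with Cell Ranger 3.0.2 per the file headers, with mm10 named in the submitters' processing notes. The replicate is the library, 2 per diet. Barcodes under 200 genes or over 10% mitochondrial UMIs were dropped, and the other cells were scaled to 10000 UMIs and clustered without the members and their pathway genes (2000 variable genes, 30 principal components, 15 neighbours, leidenalg 0.10.2 at resolution 1.0). Clusters were named from 24 marker lists, and a name needed at least 3 markers of a list among the top 50 genes. That alone was not enough. Cluster 14 stayed unnamed with 6 proliferating markers, and cluster 2 with 3 eosinophil markers on MCD and 2 on NCD. UMI counts were summed per class and library and tested with edgeR 4.0.16 (TMM, filterByExpr, quasi-likelihood test, Benjamini-Hochberg adjusted p over all genes tested, threshold 0.05) in R 4.3.3. The script was tested on simulated data. DESeq2 1.42.0, other scaling, filters and clusterings, thinning, a replicate block and leaving out each library were tried. All members are named; from each pathway list the 3 genes with the largest change in each direction among those past the threshold, and for 4 members the 3 genes of most similar level. Library totals and cells kept, with the precision they give, are in the results. The joined macrophages, the cDC2-like, endothelial-like and cluster 2 fits, their class by diet terms and the removal of the 5% of cells with most UMIs were added after seeing the data. C1q and lipid-associated macrophage-like cells were not fitted alone, as each class had under 20 cells per library in 1 diet.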

Additional observations from a re-analysis of the deposited data

Results flagged for a closer look

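The class by diet terms that passed were 5, of 3 members, each comparing the diet effect with that in Ly6Chi-like monocytes on the log2 scale (edgeR, adjusted over all genes tested). The Il1b term was -1.11 ± 0.11 (SE) in the joined macrophages, where the effect was 1.62 beside 2.71. Diet and cell type cannot be told apart in the joined macrophages, which were mostly different classes on the 2 diets. The Il1b term was -0.91 ± 0.12 in cDC2-like cells, where the effect was 1.75. In cluster 2 it was -2.28 ± 0.33, from 69 and 16 Il1b UMIs on NCD, and the median term of all genes there was 0.55. These 3 terms kept their call without each library in turn. The Il1rn term in cluster 2 was -1.10 ± 0.37 (adjusted p = 0.0481). It was -0.56 (adjusted p = 0.566) without NCD replicate 2, -1.50 (0.311) without MCD replicate 1 and -0.62 (0.927) without MCD replicate 2, and its adjusted p was 0.0967 by DESeq2. The Il1rap term in cluster 2 was 3.10 ± 1.002 (adjusted p = 0.0356). It rests on 2 UMIs in the first NCD library and 0 in the second, and it was lost in 7 of 8 other settings. What the low UMI counts of cluster 2 contribute to these terms was not tested.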

How the results depend on the processing

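Over 42 results, 571 values of members were recomputed under other settings: 498 kept their direction and side of the threshold, 71 kept their direction and lost the call, and 2 reversed. Il1rn reversed to -0.90 without the lipid-associated macrophage-like cells, a sum that kept the C1q macrophage-like cells of NCD. In the monocyte and macrophage cells Il18bp reversed to 0.68 (edgeR adjusted p = 0.338) at Leiden resolution 0.5, and the cause was not tested. Il1b kept its call in all settings of every fit it is named in, between 2.04 and 2.87 over 16 settings in those cells. There 7 members passed by DESeq2, 7 without normalization factors, 6 after thinning to the smallest library and 5 without NCD replicate 1. Genes called by DESeq2 numbered 1034 in Ly6Clo-like, 1633 in macrophage, 1591 in cDC2-like and 1170 in endothelial-like cells and 51 in cluster 2, and for the class by diet terms 226 (Ly6Clo-like), 17 (cDC2-like) and 273 (cluster 2). Without normalization factors 4205 genes were called in Ly6Chi-like and 4483 in cDC2-like cells. After thinning the counts were 1583 (macrophages) and 76 (cluster 2), and for the terms 209 (Ly6Clo-like), 49 (cDC2-like) and 130 (cluster 2). Without a low count filter the terms gave 410 (macrophages) and 76 (cDC2-like). The macrophage term gave 266 with up to 20% mitochondrial UMIs, 266 with pathway genes kept in the clustering and 217 without the 5% of cells with most UMIs. The causes were not tested. Leaving out 1 library gave 3128 to 3852 genes in the monocyte and macrophage cells, 4393 to 5263 in all cells, 1272 to 2517 in Ly6Chi-like, 836 to 1827 in Ly6Clo-like, 1848 to 2300 in macrophage, 1187 to 1791 in cDC2-like and 1598 to 2762 in endothelial-like cells and 58 to 136 in cluster 2. For the terms it gave 156 to 274 (Ly6Clo-like), 101 to 407 (macrophages), 31 to 91 (cDC2-like) and 132 to 477 (cluster 2). The log2 difference of the Il1b to Il1rn ratio was 1.25 to 1.78 without 1 library. It was 3.17 without the lipid-associated macrophage-like cells and with the C1q macrophage-like cells of NCD kept. The share of monocyte and macrophage cells with an Il1b UMI was 9.80% on NCD and 34.6% on MCD at 500 UMIs, and 26.996% and 82.5% unthinned. With up to 20% mitochondrial UMIs, Il1b was 1583 CPM in the monocyte and macrophage cells and 1746 in macrophages on MCD, and 251 in Ly6Clo-like cells on NCD. Libraries with equal replicate numbers gave r = 0.0049 over 11014 genes, the same value for both pairs. That value cannot tell if such libraries share a preparation. A replicate block gave 4732 genes in the monocyte and macrophage cells, beside 4400 without it. It gave 2.27 for Il1b and changed no call of a member there. In the monocyte and macrophage cells the NCD libraries held at most 25 UMIs each of Il1a, Il1r2, Il1rap and Il18bp, which limits their precision.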
